A study of Pyrus calleryana with 9 samples.

Results

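RNA sequencing of callery pear (Pyrus calleryana) seeds was used to ask which gene functions change during the first 20 days of cold stratification, the moist chilling that releases the dormancy of temperate tree seeds. The comparison takes 6 of the 9 libraries of the study: 3 libraries of seeds that had been imbibed for 24 h and had not been chilled (0 d) and 3 libraries of seeds that had then lain on wet filter paper at 4 °C for 20 days (20 d), lettered A, B and C at each stage. The remaining 3 libraries, of seeds chilled for 50 days, entered the model only to estimate the spread. All stages share the species, the imbibition and the use of whole seeds, and no genotype or chemical treatment separates them, so that days of chilling is the labelled difference. Reads had been mapped to the genome of the wild pear P. betuleafolia, a related species, and the gene identifiers, positions, Swissprot names and Pfam domains used here are those of that genome. Nothing in the labels says whether the replicates were separate seed lots, and p-values measure only the spread between these libraries.

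A dormant seed holds an embryo that has stopped growing, together with stored oil, protein and starch and with protective proteins laid down during maturation. Abscisic acid maintains dormancy and gibberellin promotes germination, and chilling is known to shift the balance between them in many woody species. After dormancy is lost, stored oil is converted to sugar through beta-oxidation and the glyoxylate cycle, cell walls loosen, plastids turn green and translation is built up. The genes of these processes, and those of the stress and hormone programmes of the mature seed, were followed here through 102 lists built on Swissprot names and Pfam domains, which held 9605 of the 28339 genes tested.

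Sequencing depth was even, with 13897507 to 15152332 counts assigned to genes in the 6 libraries and 3.21% to 5.11% of the counts in the 10 most abundant genes. The library 20 d B stood apart. Across genes its log2 CPM correlated with 20 d A at r = 0.878 and with 20 d C at r = 0.889, whereas 20 d A and 20 d C correlated with each other at r = 0.972. Against the 3 libraries of 0 d, r was 0.872 to 0.887 for 20 d B and 0.766 to 0.835 for the other two, so 20 d B lay nearer to unchilled seeds. A relation to gene length also differed between libraries. Spearman's rho across genes, between gene length and the difference in log2 CPM from the mean of 0 d, was 0.41 in 20 d A, 0.391 in 20 d C and 0.388 in 0 d B, and -0.279, -0.112 and -0.087 in 0 d A, 0 d C and 20 d B. The differences of the libraries of 0 d from their own mean cancel for each gene, so their coefficients are not independent of each other. Genes are not independent replicates, and these coefficients describe the libraries. Counts for many lists are therefore also given without 20 d B or with the length trend removed, and the part of either in the results was not tested.

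A gene was called when edgeR's quasi-likelihood test gave an adjusted p of at most 0.01, the fitted log2 fold change was at least 1 in size and the mean FPKM, a read density scaled for gene length and library size, was at least 1 at 0 d or 20 d. By this rule 3515 genes (12.4% of those tested) were called between 0 d and 20 d, of which 2233 (7.88%) were higher and 1282 (4.52%) lower at 20 d. In 3512 of the 3515 the 3 values of 0 d and the 3 of 20 d were fully separated, against 42.2% of all tested genes. Every called gene moved in the same direction in each library of 20 d relative to the mean of 0 d, with median log2 differences of 2.61, 2.02 and 2.53 in A, B and C among genes called higher and of -2.37, -1.70 and -2.23 among those called lower. The calls were made on these same libraries, so separation and shared direction largely follow from the rule. They are no separate test of how well the libraries repeat each other. Genes called higher included 353 with a change of at least 16-fold, and genes called lower included 50. The genes that fell were more abundant, with a median of 22.2 FPKM over the 6 libraries against 6.4 FPKM for the genes that rose and 6.92 FPKM for all tested genes. They were also shorter, with a median length of 1176 bases against 1744 bases, and fewer of them had a Swissprot name (68.4% against 86.4%). In whole seeds, a lower level can mean fewer cells of a type or less RNA per cell, and these cannot be told apart.

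The split between directions depended on the scaling. Of the calls, 63.5% were higher at 20 d, but 47.2% after the gene-length trend was removed and 47.2% with limma-trend on log2(FPKM + 1). The median log2 fold change of all tested genes was 0.148 in the main analysis, -0.0782 with the length trend removed and 0.0287 with limma-trend, and changes are best read against these shifts. Without 20 d B, 6984 genes were called (23.7% of 29512), 3772 higher (12.8%) and 3212 lower (10.9%). Leaving out any other library of 0 d or 20 d cut the number to between 1236 and 1419. No gene called in the main analysis was called in the opposite direction under any of 21 alternative settings, and 289 genes called higher and 148 called lower were called in all of them.

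The labelled tissue was checked by its markers. Transcripts of the 12 seed storage protein genes summed to 1676 to 4306 FPKM at 0 d and 1115 to 2743 FPKM at 20 d, and 10 oleosin genes, which coat the oil bodies of seeds, summed to 13010 to 24070 FPKM at 0 d and 12770 to 17580 FPKM at 20 d. Of the tissue marker lists, seed coat markers had 1 of 17 tested genes called higher and 3 called lower with a median log2 fold change of -0.97, and their summed level ranged over 172 to 198 FPKM at 0 d and 225 to 345 FPKM at 20 d. The rise of that sum came from the gene called higher, SBT1.7, which is described below. Without SBT1.7 the summed level of the seed coat markers was lower at 20 d than at 0 d. Endosperm markers had 1 of 23 higher and 2 lower, with 131 to 262 FPKM at 0 d and 99.1 to 121 FPKM at 20 d. Embryo markers had 1 of 25 higher and 1 lower, with 13320 to 24360 FPKM at 0 d and 13270 to 17980 FPKM at 20 d. The part of a change in tissue make-up in the results below was not tested.

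**Figure D1:**
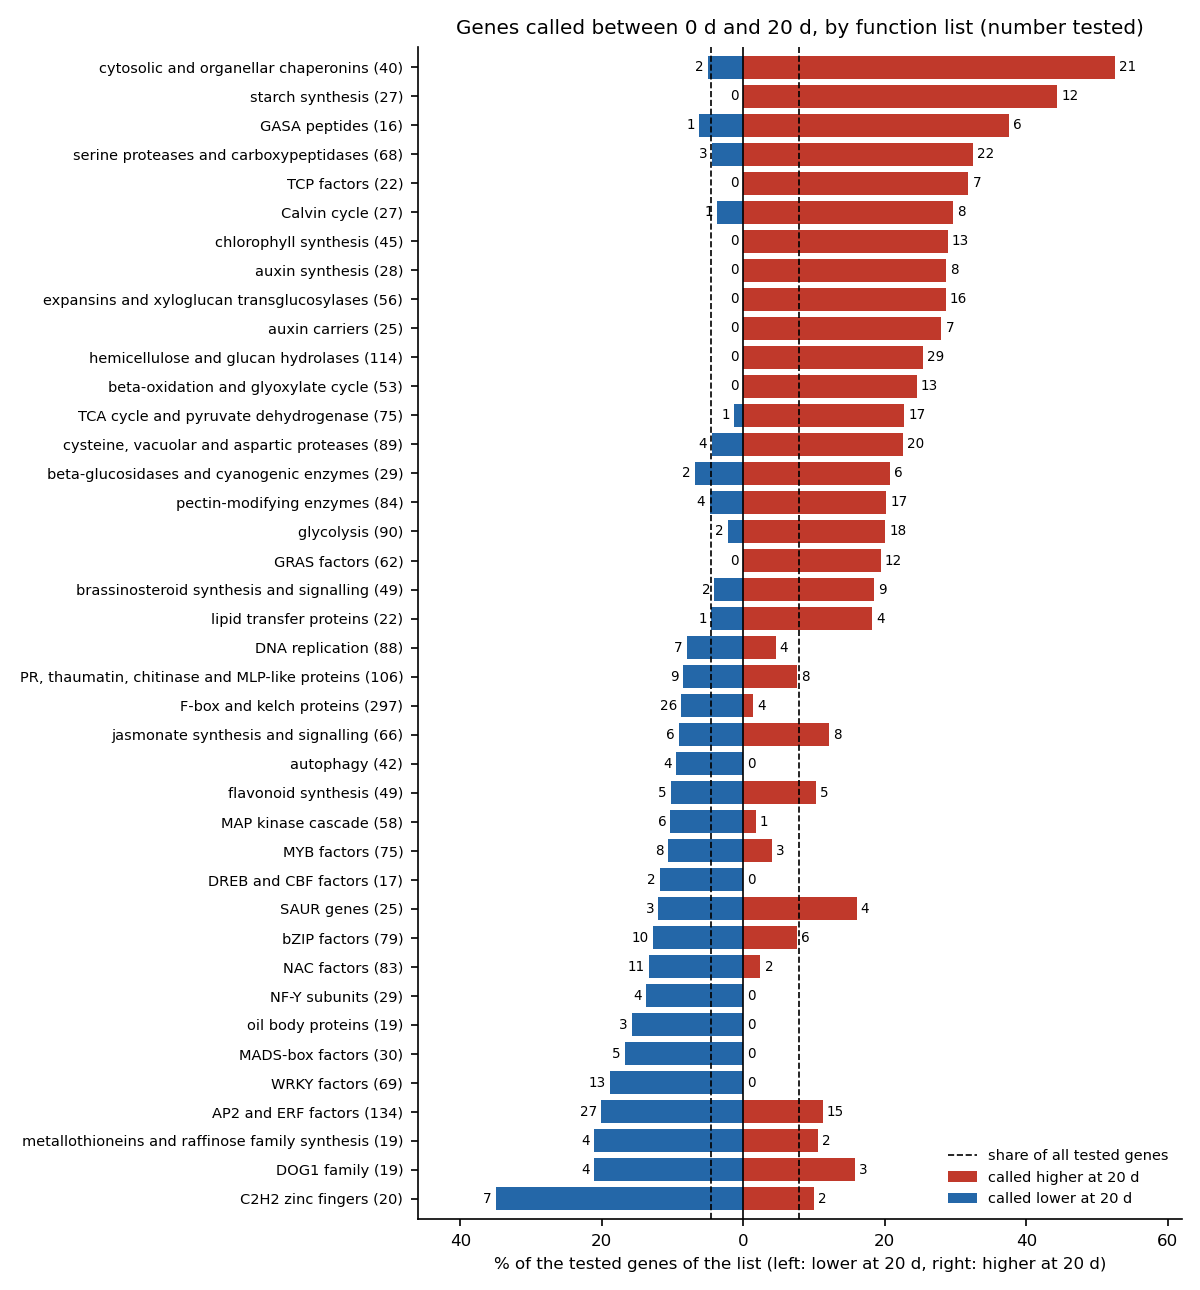
Share of the tested genes of a function list called higher (right, red) or lower (left, blue) at 20 d, for the 20 lists with the highest share in each direction among lists of at least 15 tested genes; the number tested is in parentheses, the number called stands beside each bar and the dashed lines are the shares of all tested genes, 7.88% and 4.52%. Chaperonins (21 of 40) and starch synthesis (12 of 27) had the highest shares higher, and C2H2 zinc fingers (7 of 20) the highest share lower.

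Calls were found in 101 of the 102 lists, and 71 lists had calls in both directions. The share called higher exceeded that of all genes in 58 lists and the share called lower did so in 44. In the plot of shares by function list, chaperonins have 52.5% and starch synthesis 44.4% of their genes called higher, while C2H2 zinc fingers have 35.0% and AP2 and ERF factors 20.1% called lower. Metabolic functions and transcription factor families both include lists with more rises and lists with more falls.

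Genes of oil mobilization rose. Of 53 tested genes of beta-oxidation and the glyoxylate cycle, 13 (24.5%) were higher at 20 d and 0 lower, against 7.88% and 4.52% of all genes. The number higher was 13 with the length trend removed and 19 without 20 d B, and it ranged from 6 (without 0 d A) to 19 (without 20 d B) when 1 library was left out. Isocitrate lyase, an enzyme of the glyoxylate cycle that lets carbon from fat be used for sugar synthesis, rose in both of its genes. The more abundant, Chr9.g46455, had 32.9, 51.5 and 83.9 FPKM at 0 d and 1356, 462 and 1385 FPKM at 20 d (log2 fold change 4.33, SE 0.60, adjusted p = 0.000722). Levels at 20 d were all above those at 0 d, with 20 d B lower than its 2 companions. The other gene, Chr17.g25548, had 3.6, 3.4 and 5.36 FPKM at 0 d and 55.5, 30.7 and 77.8 FPKM at 20 d (log2 fold change 3.81, SE 0.44, adjusted p = 0.000296). Malate synthase Chr6.g51605, the partner enzyme of that cycle, had 269.6, 446 and 474 FPKM at 0 d and 2841, 826 and 3140 FPKM at 20 d (log2 fold change 2.59, SE 0.52, adjusted p = 0.00463), and its call was lost without 0 d A, 0 d B, 0 d C, 20 d A or 20 d C (adjusted p from 0.016 to 0.0318).

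Enzymes before and after the glyoxylate cycle rose too. Acyl-CoA oxidase Scaffold2.g05454, which catalyses the first step of peroxisomal beta-oxidation, had 24.4, 35.9 and 23 FPKM at 0 d and 146, 106 and 149.7 FPKM at 20 d (log2 fold change 2.34, SE 0.32, adjusted p = 0.00072). It was the one called gene of 7 acyl-CoA oxidases. The multifunctional protein of beta-oxidation Chr16.g29906 had 22.7, 24 and 22 FPKM at 0 d and 247, 80.1 and 242 FPKM at 20 d (log2 fold change 3.13, SE 0.44, adjusted p = 0.000837). Of the genes of that family, 2 of 4 were called, as were 4 of 10 long chain acyl-CoA synthetases, which activate fatty acids, the latter 0 without 0 d A and 5 without 20 d B. None of 5 3-ketoacyl-CoA thiolases, which end each round of beta-oxidation, was called by edgeR (1 by DESeq2 and 1 at an unadjusted p under 0.05, higher in both cases). Their median log2 fold change was -0.36, within a range of -0.67 to 1.49. The summed level of the thiolase genes was nevertheless higher at 20 d, with 286.5, 440 and 413.5 FPKM at 0 d and 1027, 628 and 1129 FPKM at 20 d. Phosphoenolpyruvate carboxykinase, which carries the carbon on towards sugar, rose in 3 of 6 genes, led by Chr1.g58209 with 78.1, 111 and 120.4 FPKM at 0 d and 668, 486 and 632 FPKM at 20 d (log2 fold change 2.60, SE 0.35, adjusted p = 0.000631).

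Starch synthesis rose in the same interval, with 12 of 27 genes (44.4%) higher and 0 lower, 14 higher without 20 d B and a range from 4 (without 0 d C) to 14 (without 20 d B) with 1 library left out. Glucose-1-phosphate adenylyltransferase, which makes the ADP-glucose from which starch is built, accounted for 7 calls of 10 tested genes. Small subunit gene Chr9.g46200 had 1.31, 3.06 and 1.89 FPKM at 0 d and 22.1, 12.3 and 23.6 FPKM at 20 d (log2 fold change 3.28, SE 0.43, adjusted p = 0.000602), and Chr17.g25838 had 1.69, 3.47 and 2.09 FPKM at 0 d and 20.1, 15.5 and 17.6 FPKM at 20 d (log2 fold change 2.94, SE 0.35, adjusted p = 0.000335). Both started at low levels. Starch synthases were higher in 5 of 16 genes and branching and debranching enzymes in 2 of 12. With 1 library left out these ranged from 0 (without 0 d C) to 7 (without 20 d B) and from 0 (without 0 d A) to 8 (without 20 d B). Starch breakdown moved less on this rule, with 6 of 56 genes higher and 2 lower, and 6 each way after the length trend was removed. Alpha-glucan water dikinase Chr13.g23661, which phosphorylates starch before it is degraded, was among the higher ones with 1.65, 1.91 and 1.54 FPKM at 0 d and 19.1, 5.06 and 24 FPKM at 20 d (log2 fold change 3.31, SE 0.64, adjusted p = 0.00375), and its call was lost without 0 d A, 0 d B, 0 d C, 20 d A or 20 d C (adjusted p from 0.0109 to 0.03). The one falling gene named by the rule, Chr16.g29822, is annotated as an inactive beta-amylase, with log2 fold change -1.55, and lost its call without 0 d A, 0 d B, 0 d C, 20 d A or 20 d C (adjusted p from 0.0136 to 0.0313).

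Glycolysis had 18 of 90 genes higher and 2 lower, although 13 and 8 after the length trend was removed, and the tricarboxylic acid cycle with pyruvate dehydrogenase had 17 of 75 higher and 1 lower. With 1 library left out, the numbers higher ranged from 3 (without 0 d A) to 21 (without 20 d B) in glycolysis and from 3 (without 0 d A) to 22 (without 20 d B) in the cycle. Glyceraldehyde-3-phosphate dehydrogenase Chr13.g23532 rose from 413 to 552 FPKM at 0 d to 1017 to 1174 FPKM at 20 d (log2 fold change 1.27, SE 0.29, adjusted p = 0.00793), a call lost without 0 d A, 0 d B, 0 d C, 20 d A, 20 d C, 50 d A or 50 d B (adjusted p from 0.0116 to 0.0363). The mitochondrial respiratory chain, by contrast, had 5 of 131 genes higher and 6 lower with a median log2 fold change of -0.27. Without 20 d B these became 7 and 31.

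Proteases of the vacuole and the secretory pathway rose. The list of serine proteases and carboxypeptidases had 22 of 68 genes higher (32.4%) and 3 lower, 17 and 5 with the length trend removed, and from 14 (without 0 d B) to 26 (without 20 d B) higher with 1 library left out. Subtilisin-like proteases, which act outside the cell, gave 12 of these with 2 falling, and serine carboxypeptidases gave 10 with 1 falling. SBT1.7 Chr15.g02148, which in Arabidopsis is known from seed coat mucilage, had 4.55, 3.87 and 4.41 FPKM at 0 d and 263, 128 and 241 FPKM at 20 d (log2 fold change 5.70, SE 0.58, adjusted p = 0.000176). It is also the one gene of the seed coat marker list called higher. SBT1.3 Chr1.g56818 was nearly undetected in unchilled seeds and had 0.0346, 0.0798 and 0 FPKM at 0 d and 21.1, 4.28 and 23.6 FPKM at 20 d (log2 fold change 8.61, SE 0.94, adjusted p = 0.000232). The opposite pattern was shown by SBT4.6 Chr2.g43873, with 24.3, 12.6 and 17.9 FPKM at 0 d and 2.92, 4.53 and 3.21 FPKM at 20 d (log2 fold change -2.27, SE 0.35, adjusted p = 0.00123). Among 89 cysteine, vacuolar-processing and aspartic proteases 20 rose and 4 fell, with from 12 (without 0 d A) to 23 (without 20 d B) higher and 0 lower without 0 d B. Vacuolar-processing enzyme Chr15.g04386, of a family that cleaves storage proteins, had 13.7, 20 and 22.4 FPKM at 0 d and 80.2, 65.7 and 85.8 FPKM at 20 d (log2 fold change 2.12, SE 0.31, adjusted p = 0.00097). Aspartyl protease AED3 Chr2.g43837 had 0.281, 0 and 0 FPKM at 0 d and 13.8, 7.59 and 16.7 FPKM at 20 d (log2 fold change 7.22, SE 0.87, adjusted p = 0.000368).

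**Figure D2:**
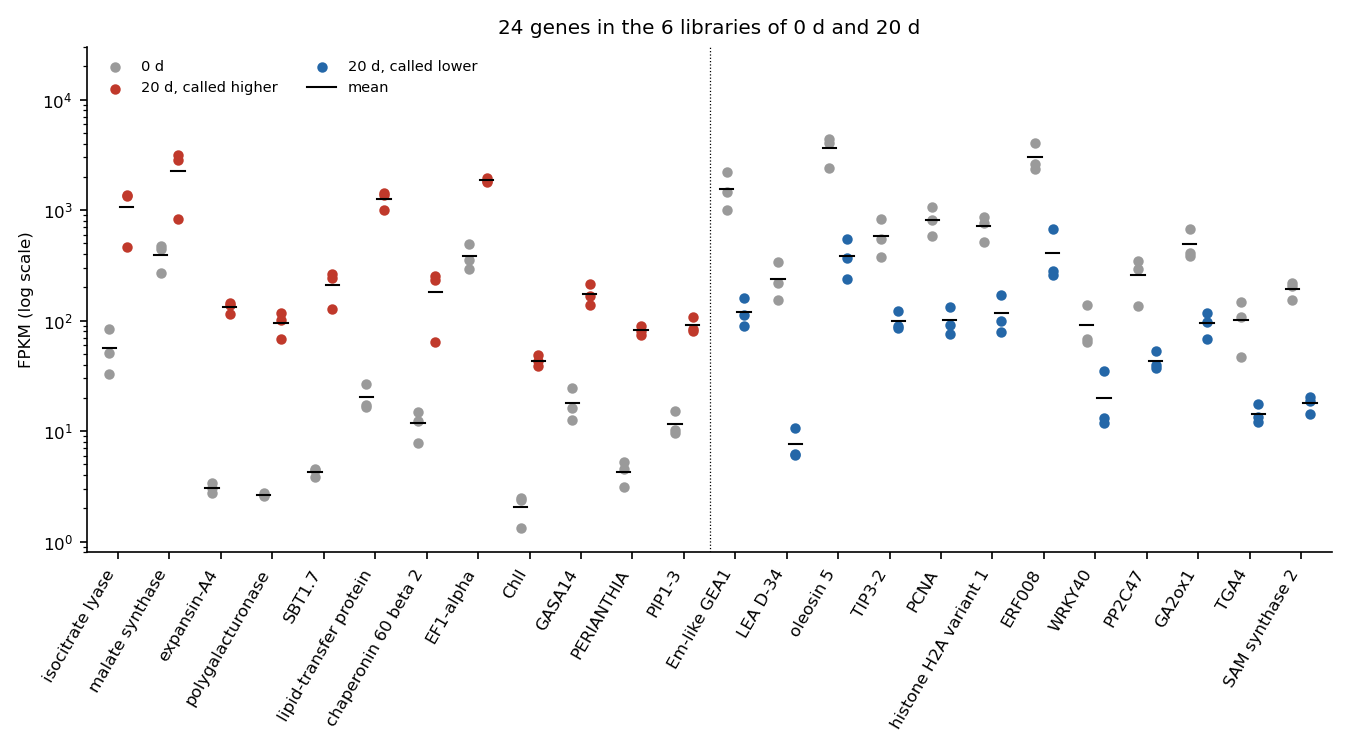
FPKM on a log scale of 24 genes in the 3 libraries of 0 d (grey) and the 3 of 20 d (red where called higher, blue where called lower), with black bars for the means. The stages did not overlap in any of them, but the genes were named by a rule that required this or were chosen after their values were seen. Expansin-A4 went from between 2.75 and 3.39 FPKM to between 116 and 145 FPKM, and Em-like protein GEA1 from between 996 and 2197 FPKM down to between 90.2 and 159 FPKM.

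Alpha-expansins, proteins that loosen the cell wall during growth, rose as a family. Of 22 tested alpha-expansins 12 were called higher and 0 lower, with log2 fold changes of 2.44 to 8.46, and the count was 12 with the length trend removed and 13 without 20 d B. It fell to 6 without 0 d A. Their summed level was 50.5, 60.2 and 63 FPKM at 0 d and 450.5, 416 and 437 FPKM at 20 d, with 20 d B close to the other two. None of 7 beta-expansins and expansin-like proteins was called by edgeR or DESeq2, with 3 at an unadjusted p under 0.05 (2 higher and 1 lower). Expansin-A4 Chr12.g36256 had 2.75, 3.04 and 3.39 FPKM at 0 d and 145, 116 and 139 FPKM at 20 d (log2 fold change 5.52, SE 0.35, adjusted p = 2.43e-05), and expansin-A1 Chr14.g50096 had 16.8, 9.66 and 10.4 FPKM at 0 d and 100.2, 93.4 and 138 FPKM at 20 d (log2 fold change 3.26, SE 0.33, adjusted p = 0.000174). Expansin-A8 Chr11.g10110 had no counts in any library of 0 d and 0, 0 and 0 FPKM at 0 d and 1.73, 4.37 and 1.82 FPKM at 20 d, at least 40.8-fold higher against a floor of 3 counts over the libraries of 0 d.

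Other wall enzymes rose in smaller shares of their families. Xyloglucan endotransglucosylases, which cut and rejoin the xyloglucan that ties cellulose together, were higher in 4 of 26 genes. Among them Chr17.g25499 had 3.35, 1.72 and 1.42 FPKM at 0 d and 71.8, 156 and 93.8 FPKM at 20 d (log2 fold change 5.72, SE 0.47, adjusted p = 7.74e-05), and Chr9.g46488, already abundant in imbibed seeds, had 63.8, 55 and 59.9 FPKM at 0 d and 275, 619 and 422 FPKM at 20 d (log2 fold change 2.96, SE 0.38, adjusted p = 0.000553). In both, 20 d B was the highest library. Hemicellulose and glucan hydrolases had 29 of 114 genes higher (25.4%) and 0 lower, 31 and 3 with the length trend removed, and from 15 (without 0 d A) to 36 (without 20 d B) higher with 1 library left out. Alpha-xylosidase 1 Chr13.g24179, which trims xyloglucan, had 0.0688, 0.194 and 0.125 FPKM at 0 d and 22.1, 2.85 and 17.2 FPKM at 20 d (log2 fold change 6.78, SE 0.90, adjusted p = 0.000615). Glucan endo-1,3-beta-glucosidase Chr17.g25635, which degrades callose, had 29.4, 15.8 and 26.8 FPKM at 0 d and 211, 183 and 242 FPKM at 20 d (log2 fold change 3.23, SE 0.35, adjusted p = 0.000242). Mannan endo-1,4-beta-mannosidase 7 Chr15.g04733, of a family that softens endosperm walls during germination in many species, had 1.71, 4.25 and 4.5 FPKM at 0 d and 21.1, 13.5 and 10.9 FPKM at 20 d (log2 fold change 2.19, SE 0.42, adjusted p = 0.00331) and lost its call without 0 d A, 0 d B, 0 d C or 20 d A (adjusted p from 0.0124 to 0.0159).

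Pectin-modifying enzymes rose in 17 of 84 genes and fell in 4, and the number higher was 10 without 0 d A and 20 without 20 d B, where 8 fell. Polygalacturonase Chr1.g57939 had 2.61, 2.62 and 2.77 FPKM at 0 d and 101, 68 and 117 FPKM at 20 d (log2 fold change 5.24, SE 0.34, adjusted p = 2.43e-05). Pectinesterase 3 Chr6.g51234 fell, with 174, 84.3 and 91.2 FPKM at 0 d and 18.4, 26.9 and 21.5 FPKM at 20 d (log2 fold change -2.30, SE 0.38, adjusted p = 0.00168), and lost its call without 20 d A or 20 d C (adjusted p from 0.0101 to 0.0103). Genes of cellulose synthesis and wall assembly were higher in 22 of 151 and lower in 1, with from 8 (without 0 d C) to 36 (without 20 d B) higher when 1 library was left out. Aquaporins had 4 of 32 genes higher and 2 lower, and 2 higher and 1 lower without 0 d A. Of 14 plasma membrane aquaporins 3 rose and none fell, led by PIP1-3 Chr14.g49049 with 10.2, 9.69 and 15.2 FPKM at 0 d and 84.3, 108 and 80 FPKM at 20 d (log2 fold change 3.04, SE 0.32, adjusted p = 0.000191). Of 9 vacuolar aquaporins 1 rose and 2 fell, among them TIP3-2 Chr14.g50630, a form typical of seeds, with 550.4, 376 and 841 FPKM at 0 d and 124, 86.7 and 89.1 FPKM at 20 d (log2 fold change -2.48, SE 0.37, adjusted p = 0.0011).

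Proteins of surface lipids gave some of the largest rises. GDSL esterases and lipases were higher in 10 of 58 genes and lower in 1, with 6 higher without 0 d C and 6 lower without 20 d B. Among them Chr10.g14404 had 0.112, 0.171 and 0.151 FPKM at 0 d and 38.3, 45.6 and 41.8 FPKM at 20 d (log2 fold change 8.18, SE 0.42, adjusted p = 7.6e-06). Of 22 lipid transfer proteins, which bind lipids outside the cell, 4 rose and 1 fell. The rising and falling members lay side by side. Chr12.g35802 (chromosome 12, 22328874 to 22330015, + strand) had 26.9, 16.6 and 17.4 FPKM at 0 d and 1011, 1423 and 1369 FPKM at 20 d (log2 fold change 6.05, SE 0.49, adjusted p = 7.56e-05). Its neighbour Chr12.g35801 (chromosome 12, 22332190 to 22333017, + strand) had 1.14, 0.487 and 1.49 FPKM at 0 d and 55.2, 95 and 56.3 FPKM at 20 d (log2 fold change 6.14, SE 0.68, adjusted p = 0.000245). The next gene, Chr12.g35800 (chromosome 12, 22342182 to 22342933, + strand), went the other way with 2314, 1158 and 1384 FPKM at 0 d and 111, 361 and 113 FPKM at 20 d (log2 fold change -2.96, SE 0.53, adjusted p = 0.00245), a call lost without 0 d A, 20 d A or 20 d C (adjusted p from 0.0106 to 0.013). Genes of such tandem families share sequence, and how reads were divided between near-identical copies is uncertain.

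**Figure D3:**
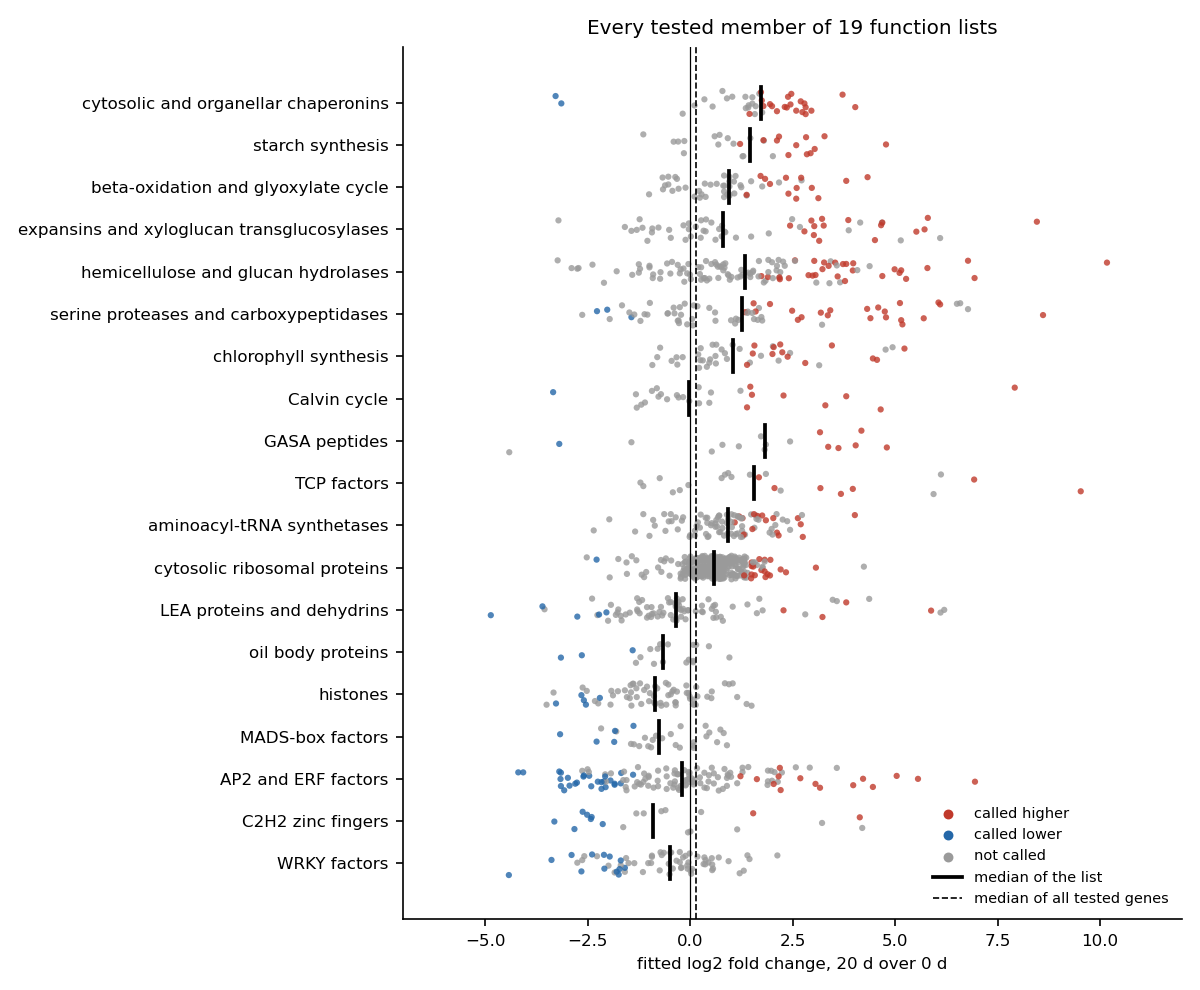
Fitted log2 fold change (20 d over 0 d) of every tested member of 19 function lists, each dot a gene, red where called higher, blue where called lower and grey where not called; thick bars are list medians and the dashed line the median of all tested genes (0.148). Chaperonins lie almost entirely to the right (median 1.74), cytosolic ribosomal proteins form a narrow group at 0.57, and histones lie mostly to the left (median -0.85).

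Protein folding gave the highest share of any list of 15 or more genes. Chaperonins, the barrel-shaped complexes that fold newly made proteins, had 21 of 40 genes higher (52.5%) and 2 lower, with a median log2 fold change of 1.74 against 0.148 for all genes. With the length trend removed the numbers were 24 and 2, without 20 d B they were 28 and 2, and with 1 library left out the number higher ranged from 4 (without 0 d A) to 28 (without 20 d B). Calls came from all 3 compartments. The subunits of the cytosolic T-complex, which folds tubulin and actin among others, were called higher in 11 of 21 genes, 1 without 0 d A and 19 without 20 d B, and their summed level was 274, 355 and 363 FPKM at 0 d and 1557, 632 and 1434 FPKM at 20 d. Mitochondrial CPN60 genes were higher in 4 of 4, with a summed level of 47.6, 69.9 and 56.6 FPKM at 0 d and 429.5, 129 and 411 FPKM at 20 d, but in none of 4 without 0 d A. Plastid chaperonin 60 subunits were higher in 5 of 7, with 67.4, 102 and 112 FPKM at 0 d and 937, 461 and 885 FPKM at 20 d. In each of these groups 20 d B lay above every library of 0 d and below 20 d A and 20 d C.

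Among single chaperonin genes, the plastid chaperonin 60 subunit beta 2 gene Chr11.g09685 had 7.84, 15 and 12.4 FPKM at 0 d and 253, 64.5 and 233 FPKM at 20 d (log2 fold change 4.03, SE 0.54, adjusted p = 0.000616). T-complex subunit epsilon Chr13.g23579 had 16.4, 22.9 and 23.1 FPKM at 0 d and 146, 48.5 and 133 FPKM at 20 d (log2 fold change 2.47, SE 0.44, adjusted p = 0.00242) and lost its call without 0 d A, 0 d B or 0 d C (adjusted p from 0.0128 to 0.0216). Both tested RbcX proteins, which assemble Rubisco and were counted with the chaperonins, fell instead, and RbcX2 Chr3.g18748 had 38.3, 28.8 and 32.1 FPKM at 0 d and 2.02, 4.86 and 2.74 FPKM at 20 d (log2 fold change -3.28, SE 0.44, adjusted p = 0.000625). The other chaperone list, of HSP70, HSP90, HSP101 and DnaJ proteins, had 18 of 166 genes higher and 8 lower, 17 each way after the length trend was removed, 2 higher without 0 d A and 36 higher and 19 lower without 20 d B. Small heat shock proteins had 1 of 38 higher and 1 lower, and 0 and 6 without 20 d B.

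Several lists of the translation machinery had more genes called higher than lower. Aminoacyl-tRNA synthetases, which charge tRNAs with amino acids, were higher in 16 of 95 genes and lower in 0, and in from 2 (without 0 d A) to 35 (without 20 d B) with 1 library left out. Glycine--tRNA ligase Chr16.g30246 had 1.46, 2.51 and 2.28 FPKM at 0 d and 44.5, 11.6 and 40.5 FPKM at 20 d (log2 fold change 4.02, SE 0.55, adjusted p = 0.000708). Proline--tRNA ligase Chr13.g23264 had 16.5, 24.7 and 20.5 FPKM at 0 d and 152, 63 and 147 FPKM at 20 d (log2 fold change 2.63, SE 0.39, adjusted p = 0.00104), lost without 0 d A or 0 d C (adjusted p from 0.0107 to 0.0109). Organellar ribosomal proteins were higher in 26 of 161 genes (16.1%) and lower in 1. The numbers were 43 and 3 with the length trend removed and 25 and 14 without 20 d B, and 11 were higher without 0 d B. Elongation factor 1-alpha Chr4.g38173, which delivers charged tRNAs to the ribosome, had 296, 357 and 492 FPKM at 0 d and 1812, 1831 and 1945 FPKM at 20 d (log2 fold change 2.37, SE 0.32, adjusted p = 0.000715). Nucleolin 2 Chr16.g31435, of the nucleolus where ribosomes are assembled, had 53.6, 123 and 128 FPKM at 0 d and 715, 396 and 717 FPKM at 20 d (log2 fold change 2.65, SE 0.43, adjusted p = 0.00165), lost without 0 d C (adjusted p = 0.0101). Ribosome biogenesis as a list had 18 of 183 genes higher and 2 lower, from 0 higher without 0 d C to 44 without 20 d B.

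Cytosolic ribosomal proteins are an example of a list whose reading depends on the scaling and on 20 d B. Of 309 tested genes 18 (5.83%) were called higher, below the 7.88% of all genes, and 1 lower, with a median log2 fold change of 0.57. After the length trend was removed 72 were higher and 6 lower. The median difference from 0 d was 0.10 in 20 d A and 0.19 in 20 d C but 1.20 in 20 d B, and without 20 d B the counts were 15 and 9. Pentatricopeptide repeat proteins, which process RNA in organelles, behaved the other way round. Their medians were 1.60 in 20 d A, 1.46 in 20 d C and -0.04 in 20 d B, and the 40 of 643 genes called higher (4 lower) became 158 (5 lower) without 20 d B. Tubulins and kinesins were higher in 11 of 124 genes and lower in 0, of which tubulins made up 8 of 26 tested genes and kinesins 3 of 98. The number higher in the whole list was 4 without 0 d A and 29 without 20 d B.

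**Figure D4:**
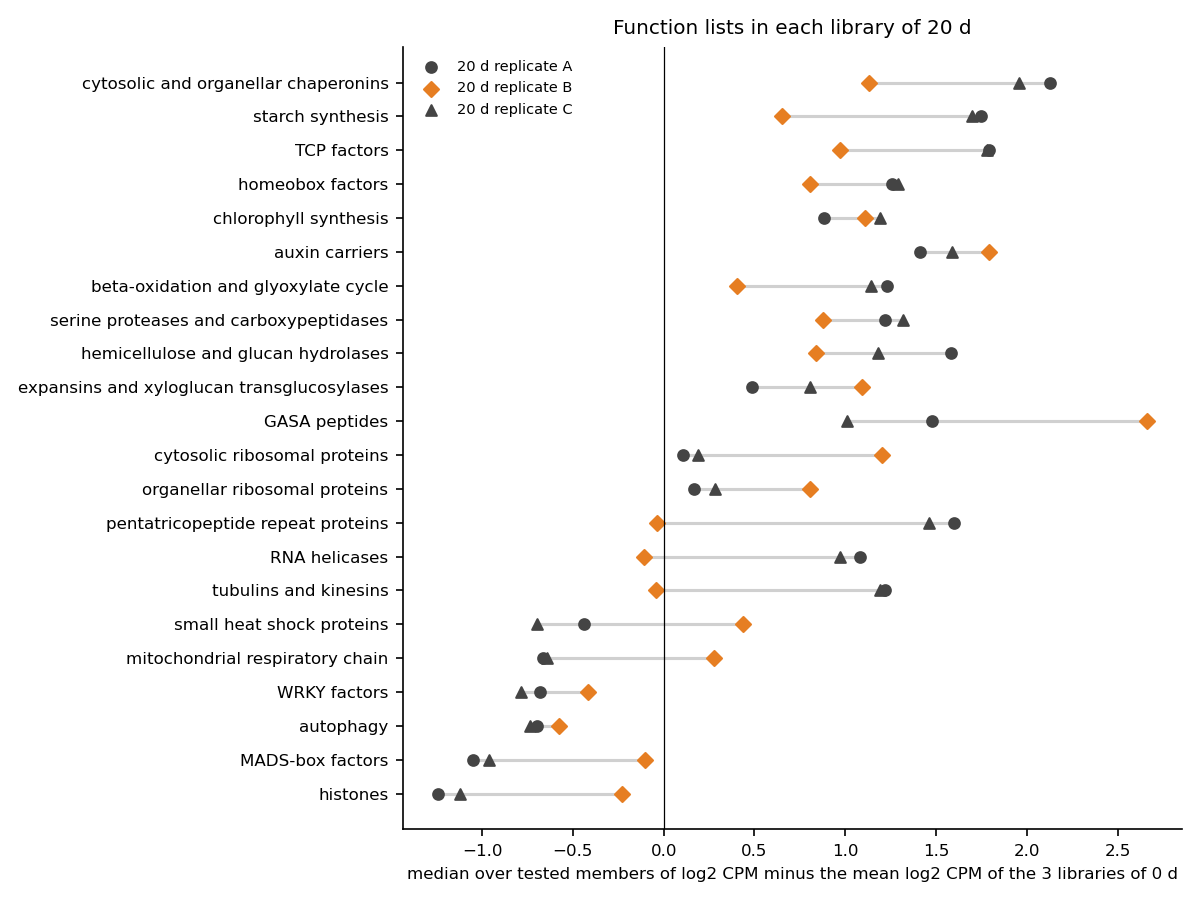
Median over the tested members of 22 function lists of the difference in log2 CPM from the mean of 0 d, in each library of 20 d (circles A, orange diamonds B, triangles C). In chaperonins and starch synthesis all 3 libraries are positive with B the lowest; in cytosolic ribosomal proteins B is the highest at 1.20, and in pentatricopeptide repeat proteins it is at -0.04 against 1.60 and 1.46.

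Of the plastid functions, chlorophyll synthesis moved most clearly. Chlorophyll synthesis had 13 of 45 genes higher (28.9%) and 0 lower, with 15 and 0 after the length trend was removed, 17 and 0 without 20 d B, and from 7 (without 0 d B) to 17 (without 20 d B) higher with 1 library left out. Magnesium chelatase subunit ChlI Chr10.g14285, of the enzyme that commits the pathway to chlorophyll, had 1.34, 2.4 and 2.48 FPKM at 0 d and 39.1, 42.8 and 48.9 FPKM at 20 d (log2 fold change 4.46, SE 0.35, adjusted p = 5.81e-05). Glutamyl-tRNA reductase Chr8.g55875, an early and regulated step, had 0.317, 0.379 and 0.223 FPKM at 0 d and 7.91, 3.79 and 9.2 FPKM at 20 d (log2 fold change 4.56, SE 0.50, adjusted p = 0.000242). Protochlorophyllide reductase, the light-dependent step, rose in Chr11.g12680 with 1.27, 1.19 and 1.91 FPKM at 0 d and 11.9, 16.3 and 17.5 FPKM at 20 d (log2 fold change 3.46, SE 0.35, adjusted p = 0.000169) and in Chr3.g18331 with 13.3, 10.6 and 13.1 FPKM at 0 d and 44.4, 45.8 and 50.9 FPKM at 20 d (log2 fold change 2.01, SE 0.28, adjusted p = 0.000738). These genes reached similar levels in all libraries of 20 d apart from Chr8.g55875, which was lower in B.

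Photosynthesis itself was mixed. Calvin cycle genes were higher in 8 of 27 and lower in 1, with a median log2 fold change of -0.02, and 2 were higher without 20 d C and 4 lower without 20 d B. Sedoheptulose-1,7-bisphosphatase Chr1.g57212 had 0.749, 1.24 and 0.469 FPKM at 0 d and 18, 15.9 and 25.7 FPKM at 20 d (log2 fold change 4.65, SE 0.43, adjusted p = 0.000106). The small subunit of Rubisco moved in both directions. Gene Chr13.g24193 had 157, 102 and 100.5 FPKM at 0 d and 7.3, 14.3 and 12 FPKM at 20 d (log2 fold change -3.34, SE 0.43, adjusted p = 0.000517), while Chr5.g08595 had 54, 28.6 and 41.8 FPKM at 0 d and 82.8, 116 and 109.5 FPKM at 20 d (log2 fold change 1.39, SE 0.31, adjusted p = 0.00708) and lost its call without 0 d A, 0 d B, 0 d C, 20 d A, 20 d C, 50 d A or 50 d B (adjusted p from 0.011 to 0.0375). Photosystem and light-harvesting genes were higher in 11 of 80 and lower in 3, with 4 higher without 0 d A and 9 lower without 20 d B. Oxygen-evolving enhancer protein 1 Chr15.g02399, of photosystem II, had 2.03, 0.998 and 3.82 FPKM at 0 d and 15.3, 19.6 and 20.5 FPKM at 20 d (log2 fold change 3.11, SE 0.44, adjusted p = 0.000837). Photosystem II D2 protein Scaffold23.g58954, a plastid-encoded protein whose gene is here annotated on a scaffold, was among the 10 largest falls, with 302, 29.1 and 60.3 FPKM at 0 d and 0.687, 6.9 and 0 FPKM at 20 d, so that the libraries of 0 d already ranged widely (log2 fold change -5.60, SE 1.30, adjusted p = 0.00887). Its call was lost without 0 d A, 0 d B, 0 d C, 20 d A, 20 d C, 50 d A or 50 d B (adjusted p from 0.0105 to 0.0424).

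Calls among the genes of gibberellin synthesis were all higher, and those among the genes of inactivation all lower. Both lists are small. Of 17 gibberellin synthesis genes 3 were higher (17.6% against 7.88% of all genes) and 0 lower, with a median log2 fold change of 1.44. Of 8 gibberellin 2-oxidases, which inactivate the hormone, 2 were lower and 0 higher, with a median of -1.06. Their share called lower was above the 4.52% of all genes. The summed level of the 2-oxidases was 735, 434 and 442 FPKM at 0 d and 85.1, 141 and 113 FPKM at 20 d. Most of it came from Chr10.g15067. The number of 2-oxidases lower was 0 without 20 d A. Gibberellin 2-beta-dioxygenase 1 Chr10.g15067 had 682, 387 and 410.3 FPKM at 0 d and 69, 119 and 96.8 FPKM at 20 d (log2 fold change -2.29, SE 0.39, adjusted p = 0.00209) and lost its call without 20 d A or 20 d C (adjusted p from 0.0117 to 0.0121). Ent-kaurenoic acid oxidase 1 Chr16.g28723, a middle step of synthesis, had 0.751, 0.536 and 0.146 FPKM at 0 d and 5.79, 6.72 and 6.38 FPKM at 20 d (log2 fold change 3.79, SE 0.63, adjusted p = 0.00179), lost without 0 d B or 0 d C (adjusted p from 0.0112 to 0.0117). Gibberellin 3-beta-dioxygenase 1 Chr17.g26837, which makes the active hormone, had no counts at 0 d and 0, 0 and 0 FPKM at 0 d and 1.25, 0.333 and 1.88 FPKM at 20 d, at least 15.2-fold higher against a floor of 3 counts over the libraries of 0 d, with a call lost without 0 d A, 0 d B, 0 d C, 20 d A or 20 d C (adjusted p from 0.0147 to 0.0212). With 1 library left out the number of synthesis genes higher ranged from 0 (without 0 d B) to 4 (without 20 d B).

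Downstream of the hormone, 2 of 13 gibberellin receptor and DELLA genes rose and none fell. DELLA protein GAI Chr17.g27556, a repressor of gibberellin responses, had 9.92, 10.6 and 11.5 FPKM at 0 d and 65.3, 31.8 and 57.4 FPKM at 20 d (log2 fold change 2.35, SE 0.39, adjusted p = 0.00171) and lost its call without 0 d A, 0 d B or 0 d C (adjusted p from 0.0111 to 0.016). GASA peptides, small secreted proteins many of which are induced by gibberellin, were higher in 6 of 16 genes (37.5%) and lower in 1, and in from 4 (without 0 d A) to 6 (without 50 d C) with 1 library left out. Gibberellin-regulated protein 14 Chr17.g24939 had 24.7, 12.7 and 16.1 FPKM at 0 d and 166, 214 and 140 FPKM at 20 d (log2 fold change 3.37, SE 0.41, adjusted p = 0.000395). Gibberellin-regulated protein 4 Chr17.g25039 had 0.14, 1.07 and 2.41 FPKM at 0 d and 31.5, 43.8 and 22.4 FPKM at 20 d (log2 fold change 4.80, SE 0.63, adjusted p = 0.000592), and RSI-1 Chr9.g44544 had 1.26, 1.85 and 1.45 FPKM at 0 d and 18.9, 38.3 and 22.3 FPKM at 20 d (log2 fold change 4.18, SE 0.49, adjusted p = 0.000297). In all 3 genes 20 d B was the highest library.

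Genes of abscisic acid were mostly not called. None of 14 synthesis genes was called by edgeR. DESeq2 called 2 lower and 0 higher, 1 was higher and 3 lower at an unadjusted p under 0.05, and 1 was called higher without 20 d B. Of 5 abscisic acid 8'-hydroxylases, which inactivate the hormone, Chr16.g28238 was called with 7.93, 5.8 and 5.35 FPKM at 0 d and 25.4, 11.2 and 22.6 FPKM at 20 d (log2 fold change 1.72, SE 0.35, adjusted p = 0.00451), and it lost its call without 0 d A, 0 d B, 0 d C, 20 d A or 20 d C (adjusted p from 0.0174 to 0.0342). The other 4 had fitted log2 fold changes of 1.28 (Chr6.g53398, adjusted p = 0.0385), 1.85 (Chr3.g20140, adjusted p = 0.011), -0.76 (Chr15.g02290, adjusted p = 0.133) and -2.63 (Chr15.g04187, adjusted p = 0.0154). Of 12 PYL receptors only PYL2 Chr8.g53982 was called, with 1.47, 1.25 and 1.77 FPKM at 0 d and 6.03, 9.84 and 8.37 FPKM at 20 d (log2 fold change 2.51, SE 0.48, adjusted p = 0.00343), lost without 0 d A, 0 d B, 0 d C or 20 d C (adjusted p from 0.0126 to 0.019). Protein phosphatases 2C, a family that includes the repressors of the signal, had 1 of 102 genes higher and 7 lower, although 11 each way without 20 d B. PP2C47 Chr13.g23199 had 136, 296 and 347 FPKM at 0 d and 37.3, 53.2 and 40 FPKM at 20 d (log2 fold change -2.50, SE 0.39, adjusted p = 0.00127). Of 16 genes for ABI3, ABI4, ABI5 and FUS3 regulators, 1 was higher, and 8 without 20 d B. That gene, ABI5 Chr14.g47933, a bZIP factor of the abscisic acid response, had 5.65, 9.87 and 13.8 FPKM at 0 d and 55, 20.1 and 55.8 FPKM at 20 d (log2 fold change 2.23, SE 0.46, adjusted p = 0.00489) and lost its call without 0 d A, 0 d B, 0 d C, 20 d A or 20 d C (adjusted p from 0.0159 to 0.0321).

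The DOG1 family is named for DELAY OF GERMINATION 1, a dormancy protein of Arabidopsis, and its domain is shared by the TGA class of bZIP factors. Of 19 genes with the name or domain 3 rose and 4 fell, and 3 of the rises and 2 of the falls held in all settings. DOG1-like 2 Chr15.g03683 rose, with 15.6, 8.93 and 10.4 FPKM at 0 d and 62.8, 79.2 and 45.6 FPKM at 20 d (log2 fold change 2.51, SE 0.36, adjusted p = 0.00082). Of 2 tested DOG1-like genes, the other had a log2 fold change of -0.02. The summed level of the DOG1-like genes was 227, 181 and 300 FPKM at 0 d and 250, 288 and 269 FPKM at 20 d, so the stages overlapped. A pair of genes for the TGA factor PERIANTHIA, which in Arabidopsis acts in floral patterning, rose: Chr13.g24159 had 3.1, 4.51 and 5.26 FPKM at 0 d and 80.1, 75 and 89.7 FPKM at 20 d (log2 fold change 4.32, SE 0.33, adjusted p = 5.54e-05) and Chr16.g31048 had 11.4, 9.72 and 10.4 FPKM at 0 d and 61.1, 67.4 and 54.7 FPKM at 20 d (log2 fold change 2.62, SE 0.30, adjusted p = 0.000272). TGA4 Chr11.g10000 fell, with 47.4, 107 and 147 FPKM at 0 d and 13.5, 12.1 and 17.5 FPKM at 20 d (log2 fold change -2.73, SE 0.43, adjusted p = 0.00135), as did TGA2.3 Chr12.g35972, with 43.2, 52.8 and 59.6 FPKM at 0 d and 4.44, 9.51 and 9.68 FPKM at 20 d (log2 fold change -2.64, SE 0.37, adjusted p = 0.000786). Replicates did not overlap in any of the 5 genes given by identifier here, against 42.2% of all tested genes without overlap. The 5 were named by a rule that required this or were chosen after their values were seen.

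Some genes of auxin synthesis and transport were called higher and none lower. Of 28 synthesis genes 8 were higher and 0 lower, with from 2 (without 0 d C) to 7 (without 20 d B) higher when 1 library was left out. Tryptophan synthase alpha chain Chr5.g07027 had 31.1, 18 and 24.2 FPKM at 0 d and 82.2, 88.1 and 83.2 FPKM at 20 d (log2 fold change 1.88, SE 0.29, adjusted p = 0.00115), lost without 0 d C (adjusted p = 0.0107). The flavin monooxygenase YUCCA10 Chr3.g17729 had no counts at 0 d and 0, 0 and 0 FPKM at 0 d and 1.04, 0.329 and 2.54 FPKM at 20 d, at least 30.3-fold higher against a floor of 3 counts over the libraries of 0 d, and its call was lost without 0 d A, 0 d B or 0 d C (adjusted p from 0.0151 to 0.0189). Of 25 auxin carriers 7 were higher and 0 lower, although 8 and 3 after the length trend was removed, 8 and 2 without 20 d B and 2 higher without 0 d C. They comprised 4 of 7 influx carriers, 0 without 0 d B, and 3 of 17 efflux carriers. The summed level of the efflux carriers went the other way, with 365, 308 and 245 FPKM at 0 d and 199, 244 and 184 FPKM at 20 d. Auxin efflux carrier component 1a Chr6.g50823 had 0.475, 0.32 and 1.05 FPKM at 0 d and 15.5, 9.69 and 10.3 FPKM at 20 d (log2 fold change 4.35, SE 0.48, adjusted p = 0.000248). Auxin response regulators had 9 of 84 genes higher and 1 lower, with from 3 (without 0 d A) to 22 (without 20 d B) higher when 1 library was left out. The lower gene was IAA13 Chr2.g41336 with 276, 140.1 and 241 FPKM at 0 d and 38.9, 42.5 and 30 FPKM at 20 d (log2 fold change -2.47, SE 0.34, adjusted p = 0.00068). IAA27 Chr15.g03142, of the same repressor family, rose, with 2.13, 1.59 and 4.84 FPKM at 0 d and 20.6, 16.5 and 21.6 FPKM at 20 d (log2 fold change 2.86, SE 0.41, adjusted p = 0.000852).

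Other hormone lists were less one-sided. Brassinosteroid genes had 9 of 49 higher and 2 lower, but 8 and 7 after the length trend was removed, 2 higher without 0 d C and 14 without 20 d B. Ethylene genes had 3 of 54 in each direction. S-adenosylmethionine synthase 2 Chr12.g35676, which supplies the precursor of ethylene among many other products, had 219, 152 and 204 FPKM at 0 d and 14.3, 20.3 and 18.9 FPKM at 20 d (log2 fold change -3.34, SE 0.35, adjusted p = 0.000201). Jasmonate genes had 8 of 66 higher and 6 lower in the main analysis and more lower than higher with RLE factors (8 and 9), both limma-trend fits, DESeq2 (10 and 11), the length trend removed (8 and 13) and 20 d B left out (9 and 12). Cytokinin genes had 3 of 67 higher and 4 lower, a majority that turned with DESeq2 (9 and 6) and without 20 d B (11 and 8). The response regulator ARR6 Chr6.g51327, an early cytokinin target, had 1.21, 1.97 and 1.74 FPKM at 0 d and 12.9, 12.9 and 11.6 FPKM at 20 d (log2 fold change 2.99, SE 0.36, adjusted p = 0.000372).

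Several transcription factor families had more genes called higher than lower. TCP factors, regulators of organ growth, had 7 of 22 genes higher (31.8%) and 0 lower, with 7 without 20 d B and from 3 (without 0 d B) to 7 (without 50 d A) with 1 library left out. TCP4 genes made up 4 of these calls of 5 tested. Chr9.g44770 had no counts at 0 d and 0, 0 and 0 FPKM at 0 d and 3.79, 3.33 and 3.99 FPKM at 20 d, at least 88.0-fold higher against a floor of 3 counts over the libraries of 0 d. Contig68.g59491 had 0, 0 and 0.0682 FPKM at 0 d and 2.79, 2.94 and 4.66 FPKM at 20 d (log2 fold change 6.93, SE 0.75, adjusted p = 0.000229). Homeobox factors were higher in 15 of 99 genes and lower in 1, and GRAS factors in 12 of 62 and 0, although 12 and 7 after the length trend was removed. The numbers higher with 1 library left out ranged from 8 (without 0 d C) to 24 (without 20 d B) for homeobox and from 5 (without 0 d A) to 14 (without 50 d C) for GRAS factors. ATHB-5 Scaffold2.g05304, a homeobox-leucine zipper factor, had 20.4, 21.4 and 24.4 FPKM at 0 d and 72.8, 86.5 and 66.7 FPKM at 20 d (log2 fold change 1.85, SE 0.28, adjusted p = 0.00113). The family bHLH had 12 of 100 genes higher and 5 lower, and 14 and 10 with the length trend removed. It had 6 higher without 0 d A and 21 higher and 11 lower without 20 d B. Its member bHLH71 Chr6.g53088 had 4.01, 2.82 and 2.46 FPKM at 0 d and 21.8, 27.6 and 25.2 FPKM at 20 d (log2 fold change 3.09, SE 0.32, adjusted p = 0.000191), and bHLH128 Chr4.g38371 had 135, 72.3 and 98 FPKM at 0 d and 14.2, 24.7 and 13.6 FPKM at 20 d (log2 fold change -2.45, SE 0.35, adjusted p = 0.000868). LATE FLOWERING Chr5.g07381, a zinc finger repressor of flowering in Arabidopsis, was among the 10 largest rises with 1.11, 0.684 and 0.504 FPKM at 0 d and 36.8, 72.5 and 48.4 FPKM at 20 d (log2 fold change 6.18, SE 0.51, adjusted p = 7.74e-05).

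Falls outnumbered rises among WRKY factors and among AP2 and ERF factors. WRKY factors had 0 of 69 genes higher and 13 lower (18.8% against 4.52% of all genes), 18 with the length trend removed and 17 without 20 d B, but 0 without 20 d A. Genes for WRKY6, WRKY24 and WRKY40 made up 8 of the calls, of 13 tested, and their summed level was 566, 401 and 382 FPKM at 0 d and 84.6, 143 and 106 FPKM at 20 d. WRKY40 Chr15.g04571, a regulator of defence and abscisic acid responses in Arabidopsis, had 46.1, 39.1 and 34.9 FPKM at 0 d and 3.5, 9.05 and 5.47 FPKM at 20 d (log2 fold change -2.65, SE 0.46, adjusted p = 0.00229), lost without 20 d A or 20 d C (adjusted p from 0.0112 to 0.0132). The more abundant WRKY40 gene Chr8.g54097 had 139.9, 68.9 and 64.1 FPKM at 0 d and 11.9, 35 and 13.1 FPKM at 20 d (log2 fold change -2.10, SE 0.50, adjusted p = 0.00997) and lost its call without 0 d A, 0 d B, 0 d C, 20 d A, 20 d C, 50 d A or 50 d B (adjusted p from 0.0108 to 0.0469). The families of AP2 and ERF factors had 15 of 134 genes higher and 27 lower (20.1%), with from 10 (without 20 d A) to 31 (without 20 d B) lower when 1 library was left out. ERF008 Chr15.g04220, with 4082, 2379 and 2619 FPKM at 0 d and 261, 682 and 284 FPKM at 20 d (log2 fold change -2.80, SE 0.59, adjusted p = 0.00554), was abundant in unchilled seeds, and its call was lost without 0 d A, 0 d B, 0 d C, 20 d A or 20 d C (adjusted p from 0.0142 to 0.0282). RAP2-3 Chr16.g29940, of the group that responds to low oxygen, rose with 134, 167 and 220.5 FPKM at 0 d and 716, 697 and 832 FPKM at 20 d (log2 fold change 2.19, SE 0.32, adjusted p = 0.001).

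Other families also had more genes called lower than higher. The list of C2H2 zinc fingers had 2 of 20 genes higher and 7 lower (35.0%), with from 2 (without 20 d C) to 7 (without 20 d B) lower when 1 library was left out. ZAT5 Chr11.g10805 had 2642, 1912 and 2066 FPKM at 0 d and 132, 551 and 332 FPKM at 20 d (log2 fold change -2.62, SE 0.59, adjusted p = 0.00786) and lost its call without 0 d A, 0 d B, 0 d C, 20 d A, 20 d C or 50 d B (adjusted p from 0.0139 to 0.033). NAC factors had 2 of 83 higher and 11 lower, and 1 lower without 20 d A. MADS-box factors had 0 of 30 higher and 5 lower (1 without 0 d B and 10 without 20 d B), and NF-Y subunits 0 of 29 higher and 4 lower, the latter 0 without 20 d A. AGL24 Chr8.g55795, a MADS-box regulator of flowering in Arabidopsis, had 223, 146 and 227 FPKM at 0 d and 24.8, 59.1 and 31.8 FPKM at 20 d (log2 fold change -2.28, SE 0.48, adjusted p = 0.00572) and lost its call without 0 d A, 0 d B, 0 d C, 20 d A, 20 d C or 50 d B (adjusted p from 0.0109 to 0.0288). MYB factors had 3 of 75 higher and 8 lower, with 1 lower without 20 d A and 13 without 20 d B. The bZIP factors had 6 of 79 higher and 10 lower, with 6 lower without 0 d B and 12 higher and 16 lower without 20 d B. The bZIP factor 60 gene Chr6.g53489, of the endoplasmic reticulum stress response, had 824, 755 and 989.8 FPKM at 0 d and 104, 255 and 143 FPKM at 20 d (log2 fold change -2.27, SE 0.42, adjusted p = 0.00281), lost without 0 d C, 20 d A or 20 d C (adjusted p from 0.0105 to 0.0171). Signalling kinases of the MAP kinase cascade had 1 of 58 higher and 6 lower, and 1 lower without 0 d B.

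Lists of seed maturation proteins held few calls each at this threshold. Their shares called lower ran from 5.81% to 21.1%, against 4.52% of all genes. Of 86 LEA proteins and dehydrins, which protect dry cells, 4 were higher and 5 lower (5.81%), with a median log2 fold change of -0.34. The numbers were 7 and 12 with the length trend removed, 9 and 16 without 20 d B, and 2 lower without 20 d A. Their summed level was 36970, 31150 and 46980 FPKM at 0 d and 20860, 23130 and 23220 FPKM at 20 d, with the stages not overlapping. Em-like protein GEA1 Chr4.g40086 had 1459, 996 and 2197 FPKM at 0 d and 112, 159 and 90.2 FPKM at 20 d (log2 fold change -3.60, SE 0.55, adjusted p = 0.00115), and LEA protein D-34 Chr3.g17855 had 217, 153 and 340.3 FPKM at 0 d and 6.23, 10.7 and 6.15 FPKM at 20 d (log2 fold change -4.86, SE 0.68, adjusted p = 0.00077). Desiccation-related protein PCC13-62 Chr3.g17665 went the other way, with 0.178, 0.751 and 0 FPKM at 0 d and 13.5, 14.5 and 28.6 FPKM at 20 d (log2 fold change 5.88, SE 0.75, adjusted p = 0.000517). Oil body proteins had 0 of 19 higher and 3 lower (15.8%), and 1 lower without 0 d A. Oleosin 5 Chr17.g24844, the named falling member, had 4086, 2409 and 4453 FPKM at 0 d and 240.3, 552 and 371 FPKM at 20 d (log2 fold change -3.15, SE 0.56, adjusted p = 0.00252) and lost its call without 0 d A, 20 d A or 20 d C (adjusted p from 0.0101 to 0.0139). Seed storage proteins had 1 of 12 genes (8.33%) in each direction, and 5 higher without 20 d B. The rising one, a 12S protein gene Chr3.g20010, had 0.714, 0.97 and 0.795 FPKM at 0 d and 3.81, 4.54 and 3.88 FPKM at 20 d (log2 fold change 2.37, SE 0.36, adjusted p = 0.00115), and the falling one, the vicilin-like gene Contig5.g17507, had 8.05, 4 and 10.2 FPKM at 0 d and 2.43, 1.09 and 1.2 FPKM at 20 d (log2 fold change -2.15, SE 0.44, adjusted p = 0.00468), lost without 0 d A, 0 d C or 20 d C (adjusted p from 0.0171 to 0.0262). Of 19 metallothionein and raffinose family genes 2 rose (10.5%) and 4 fell (21.1%), with 0 higher without 0 d B and 1 lower without 20 d A. Metallothionein type 2 Chr12.g36272 had 123, 222 and 249 FPKM at 0 d and 9.21, 26 and 8.99 FPKM at 20 d (log2 fold change -3.67, SE 0.67, adjusted p = 0.0028), lost without 0 d B, 0 d C, 20 d A or 20 d C (adjusted p from 0.0117 to 0.0149), while Chr4.g39784 of the same type had 124, 104 and 118 FPKM at 0 d and 382, 601 and 458 FPKM at 20 d (log2 fold change 2.14, SE 0.40, adjusted p = 0.00303), lost without 0 d A, 0 d B, 0 d C or 20 d C (adjusted p from 0.0103 to 0.018).

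Genes of chromatin and DNA replication were lower in part. Histones had 0 of 70 genes higher and 5 lower, with a median log2 fold change of -0.85, and the medians were -1.24, -0.23 and -1.12 in 20 d A, B and C. The numbers lower were 16 with the length trend removed, where 4 were higher, and 27 without 20 d B, where 1 was higher. Core histones H4 (3 of 14), H2A (1 of 20) and H2B (1 of 13) held the calls, and none of 14 H3 and 8 H1 genes was called by edgeR. DESeq2 called 5 H3 genes lower and 1 H1 gene higher, and at an unadjusted p under 0.05 H3 had 6 genes lower and 1 higher and H1 had 2 higher. Histone H4 Chr14.g49472 had 128, 82.1 and 151 FPKM at 0 d and 9.83, 16.9 and 8.56 FPKM at 20 d (log2 fold change -3.27, SE 0.46, adjusted p = 0.000791), and H2A variant 1 Chr3.g17924 had 876, 518 and 768 FPKM at 0 d and 78.8, 171 and 100.2 FPKM at 20 d (log2 fold change -2.54, SE 0.40, adjusted p = 0.0014). DNA replication had 4 of 88 genes higher and 7 lower, but 11 and 9 without 20 d B. Proliferating cell nuclear antigen Chr3.g20225, the sliding clamp of DNA polymerase, had 1073, 578 and 816 FPKM at 0 d and 76.4, 133 and 91.9 FPKM at 20 d (log2 fold change -2.95, SE 0.35, adjusted p = 0.000368). The large subunit of ribonucleotide reductase Chr15.g01400, which makes deoxynucleotides, rose with 2.52, 2.86 and 2.1 FPKM at 0 d and 28.4, 9.92 and 22.7 FPKM at 20 d (log2 fold change 3.10, SE 0.44, adjusted p = 0.000845). Cyclins and their kinases had 5 of 77 higher and 3 lower, a majority that was lost with RLE factors, both limma-trend fits, DESeq2 and the length trend removed (6 and 8), and with 20 d B left out (5 and 11).

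Several lists of protein turnover and vesicle traffic had more genes called lower than higher. Of all tested genes 4.52% were called lower, 10.3% with the length trend removed and 10.9% without 20 d B. F-box and kelch proteins, which choose targets for degradation, had 4 of 297 genes higher and 26 lower (8.75%), with 58 lower when the length trend was removed, 44 without 20 d B and 1 without 20 d A. F-box protein gene Chr4.g40808 had 173, 233 and 354 FPKM at 0 d and 34.5, 48.9 and 46 FPKM at 20 d (log2 fold change -2.47, SE 0.38, adjusted p = 0.00118). Ubiquitin conjugation and ligation had 21 of 571 genes higher and 38 lower (6.65%). With 1 library left out these ranged from 6 (without 0 d A) to 45 (without 20 d B) and from 8 (without 20 d A) to 79 (without 20 d B), and 82 were lower with the length trend removed. SNARE and vesicle fusion proteins had 1 of 138 higher and 7 lower (5.07%, near the share of all genes). The number lower was 29 when the length trend was removed, 35 without 20 d B and 3 without 20 d A. Syntaxin-112 Chr2.g42373, of the machinery that fuses membranes, was among the 10 largest falls with 12.8, 16.9 and 35.8 FPKM at 0 d and 0.425, 1.28 and 1.01 FPKM at 20 d (log2 fold change -4.51, SE 0.73, adjusted p = 0.00155). Autophagy genes had 0 of 42 higher and 4 lower (9.52%), and 0 lower without 20 d A. ATG8f Chr7.g33658, a protein of the autophagosome membrane, had 263, 169 and 188 FPKM at 0 d and 34.8, 82.9 and 44.8 FPKM at 20 d (log2 fold change -1.84, SE 0.42, adjusted p = 0.00814) and lost its call without 0 d A, 0 d B, 0 d C, 20 d A, 20 d C or 50 d B (adjusted p from 0.0135 to 0.0399). The proteasome itself had 4 of 90 genes higher and 0 lower, 0 higher without 0 d A and 12 higher and 3 lower without 20 d B.

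Several lists had few calls at this threshold. Pre-mRNA splicing had 1 of 165 genes in each direction, but 19 higher and 15 lower without 20 d B, 5 and 12 with DESeq2 and 2 and 9 with the length trend removed. Disease resistance proteins had 6 of 323 higher and 2 lower, 4 and 12 after the length trend was removed and 16 higher and 5 lower without 20 d B. Mitochondrial and plastid protein import had 3 of 96 higher and 0 lower, a majority lost with the length trend removed (6 and 7), without 20 d B (11 and 14) and with both limma-trend fits. Transposon-related proteins had 7 of 358 higher and 11 lower, a majority that turned without 20 d B (27 and 22). Genes of cold acclimation and freezing tolerance had 1 of 16 higher and 0 lower. That gene, for cold-regulated 413 inner membrane protein 2 (Chr10.g14436), had 26.2, 13.3 and 14.8 FPKM at 0 d and 61.2, 70 and 62.1 FPKM at 20 d (log2 fold change 1.92, SE 0.33, adjusted p = 0.00214), lost without 0 d B or 0 d C (adjusted p from 0.0129 to 0.0174). DREB and CBF factors, known to be induced by cold within hours in leaves, had 0 of 17 higher and 2 lower, and 0 lower without 0 d A. The share lower was 11.8%, against 4.52% of all genes, and the median log2 fold change was -1.35. DESeq2 called 1 of these factors higher and 6 lower, and without 20 d B 1 was higher and 4 were lower. Lack of a call does not establish that a level stayed the same, and 11973 of the 28339 genes had an unadjusted p under 0.05.

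Genes were also grouped by protein domain. Among 296 Pfam domains with at least 20 tested genes, the aldehyde dehydrogenase family (14 of 28 higher, 0 lower) and the TCP-1/cpn60 chaperonin family (20 of 40 and 0) had the highest shares called higher, at 50.0% each. They were followed by fatty acid desaturases (10 of 22 and 1), serine carboxypeptidases (12 of 27 and 1) and the protease-associated PA domain (14 of 34 and 0). Domains of expansins (RlpA-like, 12 of 30, and pollen allergen, 10 of 26) and of protease propeptides (I29, 8 of 22, and I9, 9 of 25) came next. After them stood subtilases (12 of 34), Ole e I like pollen proteins (7 of 20), tubulin (10 of 30), TCP factors (7 of 22) and plant invertase/pectin methylesterase inhibitors (12 of 38). The same gene can carry several of these domains.

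**Figure D5:**
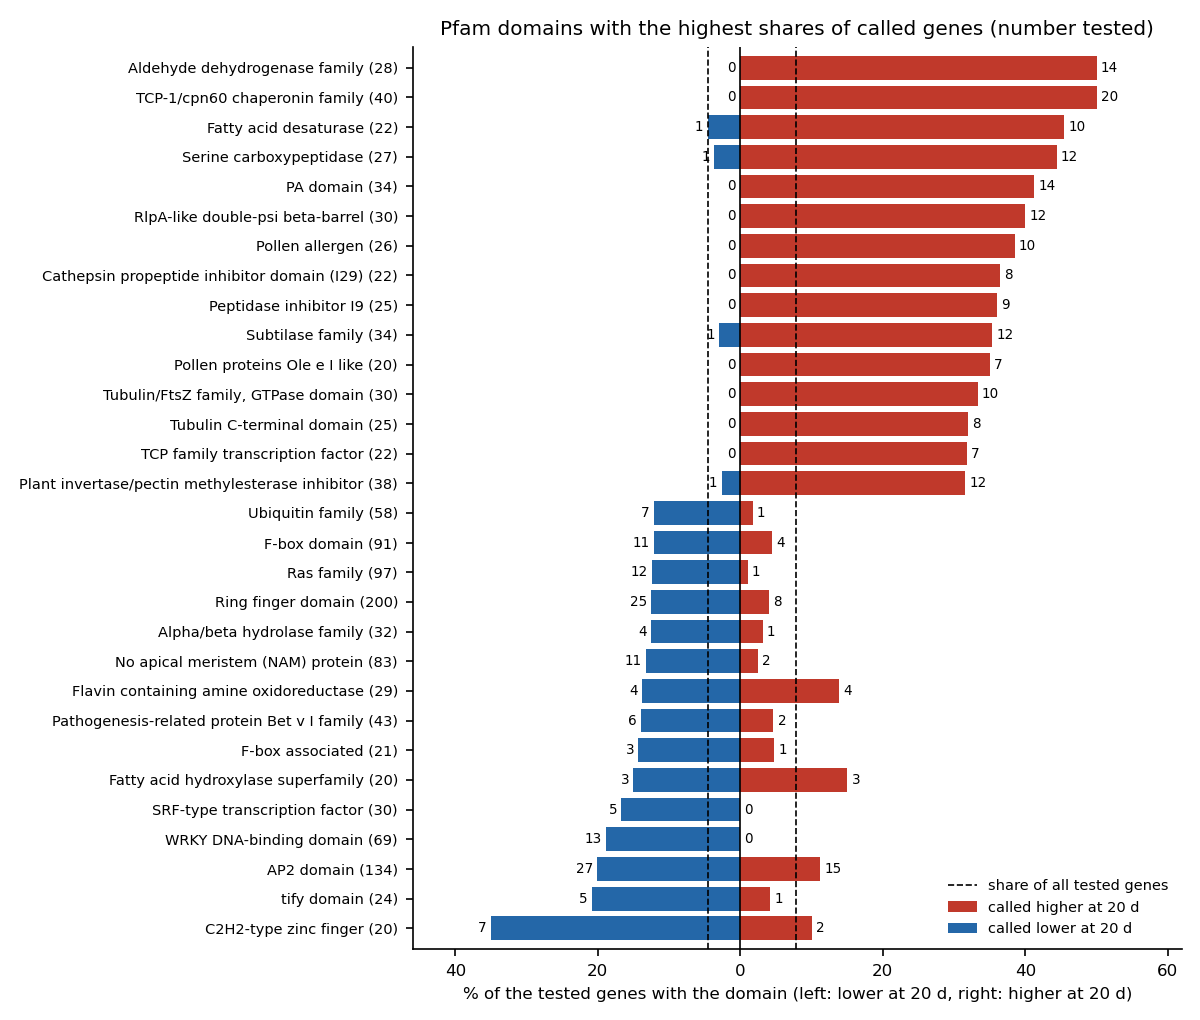
Share of the tested genes with a Pfam domain called higher (right, red) or lower (left, blue) at 20 d, for the 15 domains with the highest share in each direction among domains with at least 20 tested genes; numbers tested are in parentheses, numbers called beside the bars, and dashed lines mark the shares of all tested genes, 7.88% and 4.52%. Aldehyde dehydrogenase and TCP-1/cpn60 reach 50.0% higher, and C2H2-type zinc finger reaches 35.0% lower.

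On the falling side C2H2-type zinc finger (7 of 20 lower, 2 higher), tify (5 of 24 and 1), AP2 (27 of 134 and 15), WRKY (13 of 69 and 0) and SRF-type (5 of 30 and 0) domains led. The tify domain marks the JAZ repressors of jasmonate signalling. TIFY 6B Chr13.g24391 had 58.5, 36.5 and 52.7 FPKM at 0 d and 13.6, 16.8 and 13.1 FPKM at 20 d (log2 fold change -1.68, SE 0.29, adjusted p = 0.00214), lost without 20 d A or 20 d C (adjusted p from 0.0138 to 0.0148). The Ras family of small GTPases, which direct vesicle traffic, had 12 of 97 genes lower and 1 higher, the ring finger 25 of 200 and 8, and the ubiquitin family 7 of 58 and 1. The Bet v I family of pathogenesis-related proteins and fruit allergens had 6 of 43 lower and 2 higher, and its members took both directions. Major allergen Mal d 1 Chr16.g29955 had 83.9, 113 and 102 FPKM at 0 d and 7.19, 16.4 and 1.36 FPKM at 20 d (log2 fold change -3.51, SE 0.64, adjusted p = 0.00271), lost without 0 d A, 0 d B, 0 d C or 20 d A (adjusted p from 0.0102 to 0.0137). Major allergen Pru av 1 Chr16.g29975 had 13.7, 3.81 and 10.7 FPKM at 0 d and 52.4, 141 and 124 FPKM at 20 d (log2 fold change 3.59, SE 0.76, adjusted p = 0.00564), lost without 0 d A, 0 d B, 0 d C or 20 d C (adjusted p from 0.0157 to 0.0307).

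The study followed 12 genes by quantitative PCR, and 5 of them were called here. GA2ox1 and malate synthase (MLS) are described above. ACS1 Chr17.g27096, for the enzyme that makes the direct precursor of ethylene, had 259.8, 94.6 and 161 FPKM at 0 d and 9.15, 34.2 and 5.63 FPKM at 20 d (log2 fold change -3.30, SE 0.79, adjusted p = 0.00997), lost without 0 d A, 0 d B, 0 d C, 20 d A, 20 d C or 50 d B (adjusted p from 0.0165 to 0.042). RVA2 Chr17.g25338, written RAV2 in the study's text and named AP2/ERF and B3 domain factor by Swissprot, had 0.0839, 0.194 and 0.836 FPKM at 0 d and 3.24, 2.24 and 4.18 FPKM at 20 d (log2 fold change 3.17, SE 0.58, adjusted p = 0.00288), lost without 0 d A, 0 d B or 20 d C (adjusted p from 0.0119 to 0.0187). NAC42 Chr17.g26000, the NAC factor JUNGBRUNNEN 1, had 62.9, 51.5 and 51.6 FPKM at 0 d and 5.76, 16.4 and 10.2 FPKM at 20 d (log2 fold change -2.27, SE 0.46, adjusted p = 0.00485), lost without 0 d A, 0 d B, 0 d C, 20 d A or 20 d C (adjusted p from 0.0146 to 0.0238). The remaining 7 were not called. Their log2 fold changes were 1.85 for CYP707A2 (Chr3.g20140), 1.09 for PP2C50 (Chr8.g54174), -3.98 for JAZ8 (Chr10.g14501, adjusted p = 0.0102), 0.92 for AGPase1 (Chr10.g16643), 1.91 for SBE1 (Chr8.g53561), -1.10 for the AGL24 gene Chr15.g00612 and -0.29 for ABI4 (Chr1.g57127). The primers of the 5 called genes are printed, 5' to 3'. The member of each family is known from the gene identifier that the study lists with its primers, and the primers were not aligned to any sequence here. They are given as the study lists them, and no base is marked.
GA2ox1 forward: agccgcataaatcacagcac
GA2ox1 reverse: acctatcctgaatcctgagtact
ACS1 forward: tgcggaaggagttgagaagt
ACS1 reverse: tgactcaaccacctcatgct
MLS forward: tgtttgggagagtggtggag
MLS reverse: tggtgaaaatcctgcaagcc
RVA2 forward: agctggtgatgttgtgagga
RVA2 reverse: tgaaccccagactatcgacg
NAC42 forward: aagcgcgaggctgagaagt
NAC42 reverse: gctcttacgacagtccaatctcaa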

How the data were processed

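Total RNA of whole callery pear seeds was sequenced in 9 libraries, 3 each after 0, 20 and 50 days of chilling. Per the submitters' processing notes, the authors aligned reads with HISAT2, and the study mapped them to the P. betuleafolia genome. A counting tool and its strand setting were not given in the sources used here. Reads of overlapping, antisense and near-identical genes may therefore be shared. The deposited table holds counts per gene, not normalized, and FPKM as the authors computed it. Its columns of the authors' own comparisons (fold changes, p-values and calls) were not used. Of 59552 genes in the table, 35429 have a Swissprot name and 39028 a Pfam domain.

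The counts of all 9 libraries were fitted with edgeR 4.0.16 in R 4.3.3 (filterByExpr by stage, TMM factors, quasi-likelihood F-test, contrast of 20 d and 0 d) with Benjamini-Hochberg adjustment over 28339 genes; FPKM values served only for the level limit and for display. The limits follow those of the study. The lists, alternatives and rule for named genes were chosen with earlier results of these data known, and no list was tested as a set. Genes were named by 4 rules: in each list described, the higher and the lower called gene of highest mean FPKM whose replicates do not overlap; the 10 largest rises and 10 largest falls among named genes with a mean of at least 10 FPKM; the 12 genes the study took to quantitative PCR; and every member of lists of 5 or fewer. Subgroups within lists, and the genes named for isocitrate lyase, acyl-CoA oxidase, the multifunctional protein, phosphoenolpyruvate carboxykinase, glucose-1-phosphate adenylyltransferase, expansins A4, A1 and A8, Chr17.g25499, Chr11.g09685, T-complex epsilon, glycine and proline tRNA ligases, ChlI, glutamyl-tRNA reductase, Chr11.g12680, sedoheptulose-1,7-bisphosphatase, gibberellin 3-beta-dioxygenase 1, gibberellin-regulated protein 4, RSI-1, DOG1-like 2, Chr16.g31048, TGA2.3, YUCCA10, efflux carrier 1a, TCP4, Chr15.g04571, GEA1, PCC13-62 and histone H4, were chosen after their values were seen. For genes without counts at 0 d, folds were set against a floor of 3 counts summed over the 3 libraries of that stage.

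Alternatives were RLE factors, removal of the gene-length trend, other filters and limits, glmTreat, a fit of 6 libraries, a replicate block, limma-trend (limma 3.58.1) on log2(FPKM + 1) and log2(FPKM + 0.1), DESeq2 1.42.0, and leaving out each library. The length trend was a loess fit (span 0.5) on log2 gene length, made in each library. It was fitted to log2 CPM minus the gene's mean over the 9 libraries and entered the model as an offset. The fit was also run on simulated data, and its outcome there is not given here. Summaries used Python 3.11.15 with pandas 2.3.3 and figures matplotlib 3.10.9.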

Additional observations from a re-analysis of the deposited data

How the results depend on the processing

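With 1 library left out, 1236 to 6984 genes were called, 742 to 3772 higher and 247 to 3212 lower; the highest values came without 20 d B and the cause was not tested. Called, higher and lower numbers were 6191, 3376 and 2815 with DESeq2, 7283, 4225 and 3058 at an adjusted p of at most 0.05, and 946, 751 and 195 with glmTreat. With the gene-length trend removed 5497 genes were called and 2905 were lower, and with a mean of at least 1 FPKM required in both stages 1398 were higher. The share of calls that were higher, 63.5% in the main analysis, was 47.2% with the length trend removed and with limma-trend on log2(FPKM + 1), 53.6% with limma-trend on log2(FPKM + 0.1), 54.5% with DESeq2, 57.8% with RLE factors, 72.3% with the replicate block and 79.4% with glmTreat. RLE factors, no FPKM limit, no low-count filter, the fit of 6 libraries and limma-trend left all 3 numbers within 1.5 times.

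The correlation of deviations from the stage means was -0.245 for the A libraries, -0.38 for B and -0.0196 for C, and from -0.228 to 0.329 between unlike letters. Deviations from a stage mean cancel for each gene, so these values cannot tell whether libraries of the same letter shared a source of seeds. With the letter as a replicate block 1292 genes were called, 934 higher and 358 lower, of which 1289 were main calls.

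No main call was called in the opposite direction under any setting. Of 5227 results for named genes under the alternatives, 4075 kept direction and side of the threshold, 1120 lost the call, 32 gained it and 0 reversed. Of 4410 list counts 2510 stayed within 1.5 times of the main count and 1900 did not.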

Other observations

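Functions outside the comparisons above also moved. Receptor-like kinases, the largest family of plant cell surface receptors, had 72 of 562 genes higher (12.8%) and 24 lower, but 73 and 61 after the length trend was removed, and from 24 (without 0 d C) to 120 (without 20 d B) higher with 1 library left out. Genes of the endoplasmic reticulum and secretory entry had 27 of 198 higher and 4 lower. The numbers were 27 and 15 with the length trend removed and 47 and 20 without 20 d B, and 6 were higher without 0 d A. Calreticulin Chr4.g40400, a folding chaperone of that compartment, rose with 88.5, 86.3 and 125 FPKM at 0 d and 303, 383 and 292 FPKM at 20 d (log2 fold change 1.79, SE 0.30, adjusted p = 0.00189), a call lost without 0 d A or 0 d B (adjusted p from 0.0119 to 0.0124). ABC transporters had 12 of 115 higher and 1 lower, and from 1 higher without 0 d A to 36 without 20 d B. Fatty acid synthesis and desaturation had 14 of 93 higher and 3 lower. The numbers were 16 and 9 with the length trend removed and 17 and 11 without 20 d B, and 4 were higher without 0 d A. FAD2 Chr12.g37458, which makes linoleic acid, had 142, 110.5 and 163 FPKM at 0 d and 446, 302 and 537 FPKM at 20 d (log2 fold change 1.71, SE 0.32, adjusted p = 0.00294), lost without 0 d A, 0 d B, 0 d C, 20 d A or 20 d C (adjusted p from 0.0119 to 0.0171).

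Antioxidant enzymes had 15 of 151 genes higher and 7 lower, and 19 and 32 without 20 d B. Cytosolic ascorbate peroxidase 1 Chr3.g19939, which removes hydrogen peroxide, had 86.6, 67.4 and 75.1 FPKM at 0 d and 282, 363 and 278 FPKM at 20 d (log2 fold change 2.09, SE 0.30, adjusted p = 0.000805). Flavonoid synthesis had 5 of 49 genes in each direction. Anthocyanidin reductase Chr5.g05869, an enzyme of proanthocyanidin synthesis that is also on the seed coat marker list, had 19.7, 15.8 and 15.3 FPKM at 0 d and 2.18, 3.81 and 2.46 FPKM at 20 d (log2 fold change -2.50, SE 0.33, adjusted p = 0.000632), and leucoanthocyanidin reductase Chr13.g24138, of the same pathway and list, had 32.3, 20.5 and 22.4 FPKM at 0 d and 2.67, 7.54 and 2.92 FPKM at 20 d (log2 fold change -2.43, SE 0.44, adjusted p = 0.00268), lost without 0 d A, 20 d A or 20 d C (adjusted p from 0.0118 to 0.0149). Beta-glucosidases and cyanogenic enzymes had 6 of 29 higher and 2 lower. Squalene synthase Chr10.g16736, the entry to sterol synthesis, fell with 312, 238 and 219 FPKM at 0 d and 35.3, 70.7 and 37.4 FPKM at 20 d (log2 fold change -2.34, SE 0.36, adjusted p = 0.00115). With 3 libraries a stage, no value was tested for outlying libraries.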
